A study of Mus musculus with 9 samples.

Results

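PLAGL1, a zinc-finger transcription factor, was mapped by CUT&Tag in mouse periosteal stem and progenitor cells, and 305 of its 3463 peaks (8.81%) form the set described here: distal PLAGL1 peaks that carry trimethylated lysine 4 of histone H3 (H3K4me3). A peak was included when its centre lay more than 3000 bp from the nearest transcription start site (TSS) in the authors' annotation, when it shared at least 1 bp with an H3K4me3 peak, and when its detailed annotation named no repeat element. Of 1845 distal PLAGL1 peaks, 320 shared a base with an H3K4me3 peak, and 15 of these were left out for a repeat annotation. Overlap with KLF4 played no part in the choice. The comparisons below use 2 like classes, the 1355 PLAGL1 peaks at most 3000 bp from a TSS with H3K4me3 and the 1197 distal PLAGL1 peaks without it, both also free of repeat annotation.

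The cells were released by collagenase and dispase from the mandibular angle of mice aged 8 weeks and kept for 3 days in a bone-inducing medium whose additions were dexamethasone (1e-07 M), a glucocorticoid, ascorbic acid (50 µg/ml) and β-glycerophosphate (5 mM). PLAGL1 was profiled with an anti-HA antibody in Plagl1fl/fl cells (floxed, without Cre) infected with the LV-Plagl1-OE-HA lentivirus, which overexpresses tagged Plagl1, against a normal rabbit IgG library of the same treatment (1 library each). H3K4me3 came from 1 library of Plagl1fl/fl cells whose treatment label names osteogenic induction and no lentivirus, so the mark and PLAGL1 were not read in the same culture condition. KLF4 was profiled with an anti-FLAG antibody after infection with a Klf4-overexpression lentivirus in 3 Plagl1fl/fl control libraries and 3 Ctsk-iCre;Plagl1fl/fl libraries, in which Cre is driven from the Ctsk gene and Plagl1 is lost only where that driver is active. Virus was used at a multiplicity of 10. All groups carry the floxed Plagl1 alleles and all received osteogenic medium, and both factors were overexpressed. The deposited lists hold no read totals, so the depth of each library is unknown.

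The tissue label could be set only against the H3K4me3 marks, since no expression was measured. Of 13 periosteal and skeletal progenitor markers, 12 had an H3K4me3 peak within 3000 bp of a TSS (scores 182 to 1609), all but Lepr. Of 10 osteoblast markers 6 were marked (scores 52 to 741), and Bglap, Ibsp, Dmp1 and Sost were not. Marks were also present at 7 of 8 macrophage and osteoclast markers (scores 35 to 276) and at 2 of 6 endothelial markers (179 to 736). They were present at 1 of 4 Schwann markers (score 50) and at 0 of 5 skeletal muscle markers. The macrophage and osteoclast markers held 0 of the 305 peaks, as did the progenitor, endothelial, Schwann and muscle markers. The osteoblast markers held 1. The 0 therefore does not set the macrophage and osteoclast markers apart, and the part of such cells in the H3K4me3 list was not tested.

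PLAGL1, also called ZAC1, is an imprinted, growth-restraining factor that binds GC-rich DNA. H3K4me3 is laid down by SET1 and MLL methyltransferase complexes and is densest around active promoters, many of them in CpG islands. Away from annotated starts it is found at unannotated promoters, at CpG islands that lie outside genes and at very active enhancers, whereas ordinary enhancers carry mainly the monomethyl form. KLF4 is a Krüppel-like factor that binds CACCC and GC-rich elements and is best known for its part in reprogramming to pluripotency.

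The letters of the peaks themselves are not shown here, because no genome of the files' build (mm39) was used. Sequences are instead given for the genes to which members were assigned. The authors' annotation gave 15 of the 305 peaks to 12 microRNA genes, and 11 of these genes were matched by symbol in the RefSeq table (GRCm38.p6), Mir6951 being the exception. A microRNA finds its targets mainly through its seed, bases 2 to 8, which stands in capitals in the mature sequences below. The first pair shares the seed CAGUGCA and belongs to genes on different chromosomes, the second pair is from the let-7 family and shares GAGGUAG, and miR-23a is shown because its gene received more members than any other.
mmu-miR-148a-3p: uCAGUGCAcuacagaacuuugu
mmu-miR-152-3p: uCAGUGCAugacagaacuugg
mmu-let-7a-5p: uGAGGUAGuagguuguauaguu
mmu-let-7i-5p: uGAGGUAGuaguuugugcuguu
mmu-miR-23a-3p: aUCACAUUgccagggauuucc

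Promoters are shown for the 3 genes that had at least 2 members and also an H3K4me3-marked PLAGL1 peak centred within 250 bp upstream of the TSS: Fos, a subunit of the AP-1 factor that cells make within minutes of a stimulus, Klf9, a Krüppel-like factor induced by glucocorticoids, and Nr4a1, an orphan nuclear receptor of the immediate early class. By the authors' peak score, which starts at 20, these promoter PLAGL1 peaks had 129 for Fos, 109 for Klf9 and only 21 for Nr4a1. Each line gives the 250 bases before the TSS from RefSeq (GRCm38.p6, whose coordinates differ from those of the peaks), with GC boxes in capitals.
Fos promoter, chr12:85473640-85473889, plus strand: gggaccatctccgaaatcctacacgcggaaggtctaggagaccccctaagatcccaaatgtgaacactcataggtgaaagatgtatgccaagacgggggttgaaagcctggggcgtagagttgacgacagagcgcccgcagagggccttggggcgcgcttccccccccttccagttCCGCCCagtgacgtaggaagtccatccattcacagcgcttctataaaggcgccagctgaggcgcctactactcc
Klf9 promoter, chr19:23140976-23141225, plus strand: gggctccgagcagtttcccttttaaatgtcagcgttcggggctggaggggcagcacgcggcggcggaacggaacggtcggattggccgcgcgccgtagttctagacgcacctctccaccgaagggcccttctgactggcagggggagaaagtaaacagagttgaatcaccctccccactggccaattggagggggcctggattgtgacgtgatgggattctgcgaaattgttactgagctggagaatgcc
Nr4a1 promoter, chr15:101266596-101266845, plus strand: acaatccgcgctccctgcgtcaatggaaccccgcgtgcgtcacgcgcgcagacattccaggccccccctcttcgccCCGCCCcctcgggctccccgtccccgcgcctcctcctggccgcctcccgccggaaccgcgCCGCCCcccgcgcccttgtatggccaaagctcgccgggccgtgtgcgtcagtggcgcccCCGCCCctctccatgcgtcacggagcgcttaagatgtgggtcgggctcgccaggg
The GC box, GGGCGG or its complement CCGCCC, is an SP and KLF family element and was present once in the Fos promoter, 3 times in that of Nr4a1 and 0 times in that of Klf9. GC content was 58.4%, 74.4% and 59.6% in the same order. The Klf9 window held 1 CACCC and 1 TGANTCA, the AP-1 letters, which share bases with each other. Searched on both strands in 32851 RefSeq promoters, windows of the same length held GGGCGG in 32.7%, CACCC in 52.0%, TGANTCA in 6.75% and the PLAGL1 core GGGGCCCC in 0.889%. The last of these was found in none of the 3 windows. These are matches of letters only.

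The 305 peaks were strong within the PLAGL1 list. A peak's score is the authors' own value, a whole number that starts at 20 in both lists, and it is used here only to rank peaks inside one list. The median score was 47 (range 20 to 268), against 40 for promoter-marked PLAGL1 peaks and 39 for distal PLAGL1 peaks without the mark. The upper tail differed more, with 10% of each class scoring above 110, 84 and 72 in that order. Of the 10 PLAGL1 peaks with the highest scores 5 were members, as were 27 of the 101 peaks ranked to 100. Members were also wider, with a median of 240 bp against 209 bp and 176 bp. Each class comes from the same single HA library, so these differences have no replicate check.

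The members with the highest scores lay near genes of varied function, in H3K4me3 peaks with scores of 38 to 618. The first was 28488 bp upstream of Lmx1a, a LIM-homeobox factor (chr1:167488334-167488944, mm39, intergenic), with a PLAGL1 score of 268 and an H3K4me3 score of 46. Next came Lrrc74a, with scores of 233 and 112 for PLAGL1 and H3K4me3, and a peak in intron 2 of Bahcc1, which encodes a chromatin protein, with 230 and 168. Below these stood Ube2v1, a ubiquitin-conjugating enzyme variant (214 and 39, and a second peak with 144 and 39), and Cep162, a protein of the cilium base (208 and 40). The set went on with Pmepa1, a TGF-β-induced inhibitor of SMAD signalling (197 and 53), Gm14321 (184 and 38) and Gm19385 (159 and 45). It ended with the clock gene Per1 (157 and 618), the pseudokinase gene Trib1 (156 and 80), the actin-binding gene Xirp1 (150 and 121), the splicing factor gene Sf3a3 (144 and 159) and Mnt, a repressor that opposes MYC (139 and 424). Per1, Xirp1 and Mnt were annotated as CpG, and the others named here were not.

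**Figure D1:**
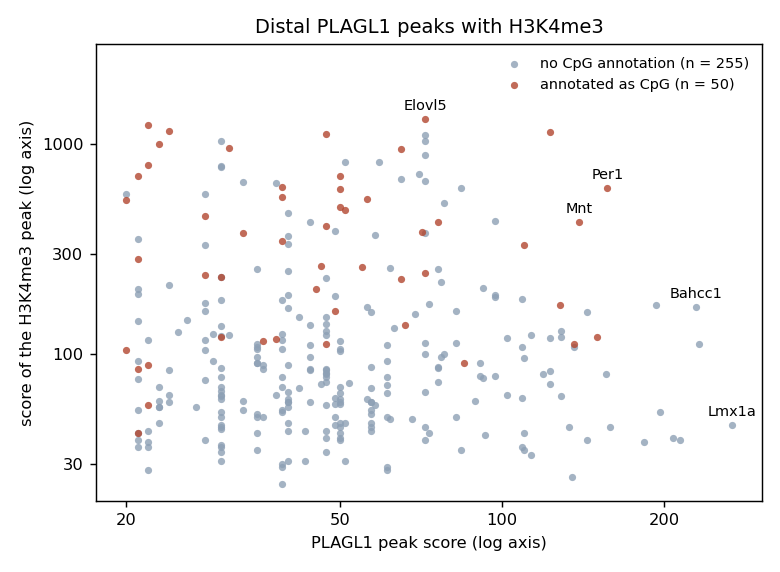
PLAGL1 peak score (x, log axis) against the score of the H3K4me3 peak it overlaps (y, log axis), 1 point per member, with the 50 annotated as CpG in red and the other 255 in grey. The member with the highest PLAGL1 score, Lmx1a at 268, has an H3K4me3 score of 46 and Bahcc1, at 230, has 168, and the points show no slope (Spearman's rho 0.01 across members, which share both libraries).

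In the scatter of both scores, PLAGL1 and H3K4me3 signal did not rise together. Across the 305 members Spearman's rho was 0.01, given as a description because all points come from the same 2 libraries. The H3K4me3 score under the members had a median of 89 (range 24 to 1316), and 166 members were at or below 100. With each H3K4me3 peak under members counted once, their median percentile by score was 17.1 in the whole list of 16251 H3K4me3 peaks. H3K4me3 peaks at promoters had a median score of 790 and a median width of 1287 bp (13026 peaks), whereas the peaks under members had a median width of 568 bp. Only 35 members lay in an H3K4me3 peak scoring above 500.

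The H3K4me3 peaks under the members were mostly distal too, which the choice of members by distance and overlap largely sets. Of the 305, 298 (97.7%, Wilson 95% interval 95.3 to 98.9) were in an H3K4me3 peak that was itself centred more than 3000 bp from a TSS. The other 7 were in promoter peaks (widths 368 to 3992 bp with a median of 3465 bp, scores 77 to 796 with a median of 576), near Flnc, Chd3, Slc1a5, Flrt2, Cic, Mir99b and Snai1. The intervals here and below cover counting error only, since peaks of 1 library are not replicates. The PLAGL1 centre fell inside the H3K4me3 peak for 276 members (90.5%), and 167 (54.8%) were wholly inside it. The median distance between both centres was 129 bp. The members used 293 separate H3K4me3 peaks, 281 with 1 member and 12 with 2, and 1 member spanned 2 marked peaks.

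Distance from genes was wide. The members lay 3004 to 278907 bp from the TSS with a median of 17078 bp, against 23345 bp for distal peaks without the mark. Within 10 kb were 93 members (30.5%), from 10 to 50 kb 166 (54.4%), from 50 to 100 kb 31 (10.2%) and farther 15 (4.92%). Members lay upstream and downstream of the TSS about equally often, with 153 of 305 upstream (50.2%, 44.6 to 55.7), whereas 463 of 1197 distal peaks without the mark were upstream (38.7%, 36.0 to 41.5). By annotation 174 members were intergenic (57.0%), 117 intronic (38.4%), 8 exonic and 6 at a transcription termination site.

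**Figure D2:**
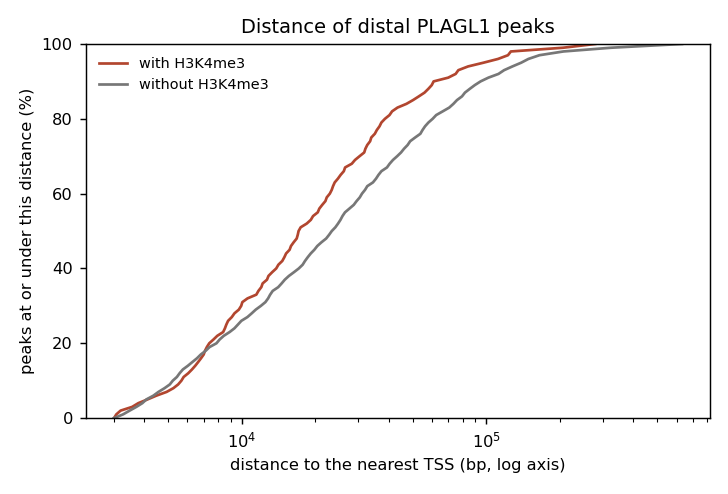
Cumulative share of peaks (y, percent) by distance to the nearest TSS (x, log axis, bp) for the 305 members and the 1197 distal PLAGL1 peaks without H3K4me3. Beyond about 10 kb the curve of members lies above the other, with medians of 17078 bp and 23345 bp, and both curves start at the 3000 bp limit that defines them.

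The curve of distances has a tail of remote members. The 10 farthest were near Tm2d1 (278907 bp), 1810053B23Rik (245976 bp), the bHLH factor gene Tcf4 (230368 bp), Cep162 (208855 bp), Arhgap12 (146020 bp), Gm19385 (126877 bp), the focal adhesion gene Tns1 (126127 bp), Smad6, which encodes an inhibitory SMAD (125615 bp), Sash1 (123813 bp) and the TGF-β co-receptor gene Tgfbr3 (122729 bp). At the other end, the members just inside the limit included Mir99b (3004 bp, PLAGL1 score 22), Chd3 (3016 bp, 92), Flrt2 (3067 bp, 50) and Cic (3133 bp, 45). The 5 marked peaks just outside it were Per1 (2991 bp, 43), Ltbp3 (2914 bp, 21), Kdm6b (2897 bp, 21), Itga2b (2696 bp, 153) and Maml3 (2670 bp, 33).

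A smaller group annotated as CpG had a higher median H3K4me3 score, with overlapping ranges. The detailed annotation named CpG for 50 members (16.4%, 12.7 to 21.0), against 7 of 1197 distal peaks without H3K4me3 (0.585%, 0.284 to 1.20) and 98 of 1355 promoter-marked peaks (7.23%, 5.97 to 8.74). Peaks whose detailed annotation names a promoter are not also named CpG there, so the share of the promoter class is not on the same footing. The CpG members had a median H3K4me3 score of 361 (range 42 to 1316) and width of 1236 bp. The other 255 had 78 (24 to 1103) and 503 bp. Distal H3K4me3 peaks with no PLAGL1 peak were also more often CpG at high H3K4me3 score. Their CpG share was 27.1% at scores of 127 to 1725 and 4.04% at 20 to 59. PLAGL1 scores did not follow this split, with medians of 46.5 and 47. Of the 35 members with an H3K4me3 score above 500, 18 were CpG.

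The 10 members with the highest H3K4me3 scores lay in marks that scored above the promoter median of 790. They were near Elovl5, a fatty acid elongase (1316), Mir193a (1229), the chromatin remodeller gene Chd9 (1159), Spag6, a protein of the sperm axoneme (1145), the forkhead gene Foxj2 (1123), Mpzl1 (1103), Akip1 (2 members in a peak of 1035), the prothymosin gene Ptma (1004) and Mirlet7a-1 (958). Their PLAGL1 scores ran from 22 for Mir193a to 123 for Spag6, with 72 for Elovl5 and Mpzl1, 47 for Foxj2 and 24 for Chd9.

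Most genes given a member also had a marked promoter, about as often as genes of all PLAGL1 peaks. Of the 271 genes, 199 (73.4%, 67.9 to 78.3) had an H3K4me3 peak within 3000 bp of a TSS, against 600 of 919 genes of distal peaks without the mark (65.3%, 62.2 to 68.3), 1903 of 2582 genes of all PLAGL1 peaks (73.7%, 72.0 to 75.4) and 1128 of 1245 of the promoter-marked class (90.6%, 88.9 to 92.1). A marked promoter PLAGL1 peak was present for 59 of the genes with a member (21.8%, 17.3 to 27.1) and for 120 of the genes of unmarked distal peaks (13.1%, 11.0 to 15.4). For the 225 members whose gene had a marked promoter, the mark under the member had a median score of 87. The highest-scoring promoter mark of the gene had a median of 755. These 225 include the 7 members that lay in promoter peaks. The mark under the member scored above that promoter mark for 24 of the 225 (10.7%). Per1 was among them, with an H3K4me3 score of 618 under the member 3765 bp upstream and 140 at its promoter. Fos had 579 under 1 member and 518 at the promoter, and Elovl5 had 1316 and 1054.

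KLF4 was found on most members, which the choice of members did not use. A KLF4 site shared at least 1 bp with 262 of 305 members (85.9%, 81.5 to 89.4). The share was 1240 of 1355 (91.5%, 89.9 to 92.9) for promoter-marked PLAGL1 peaks and 424 of 1197 (35.4%, 32.8 to 38.2) for distal PLAGL1 peaks without H3K4me3. Distal peaks with the mark thus stood near the promoter class and far from the unmarked distal class. When the PLAGL1 centre had to lie inside the KLF4 site the shares were 84.3%, 89.7% and 32.7%. The median distance between PLAGL1 and KLF4 centres on members was 109 bp.

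**Figure D3:**
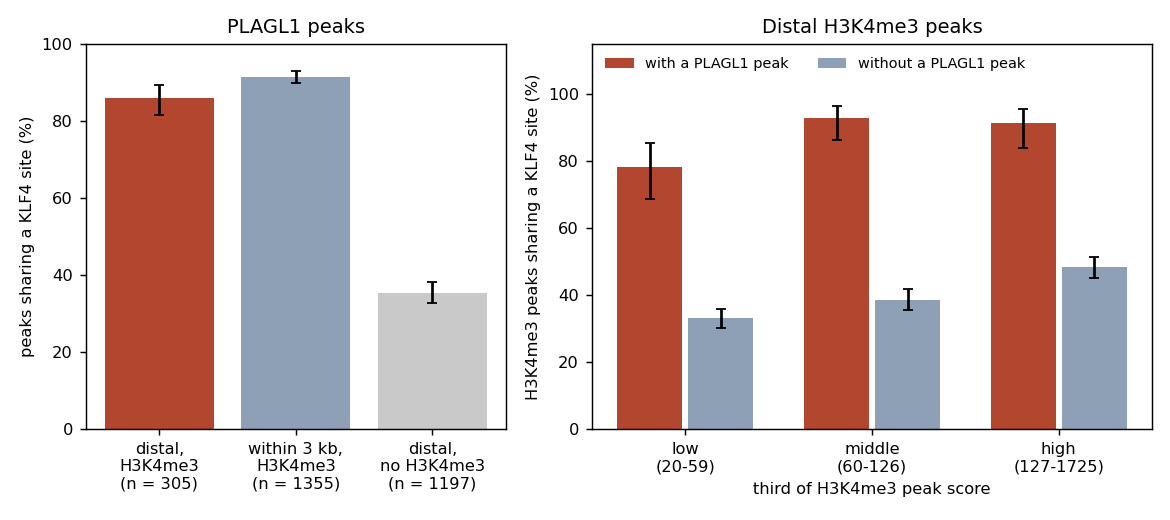
Share of peaks that overlap a KLF4 site (y, percent, Wilson 95% intervals). Left, the 3 classes of PLAGL1 peak, with 85.9% of members, 91.5% of promoter-marked and 35.4% of unmarked distal peaks; right, distal H3K4me3 peaks with a member (red) and with no PLAGL1 peak (blue) in 3 bands of H3K4me3 score, the red bars at 78.3%, 93% and 91.5% and the blue at 33.1%, 38.6% and 48.3%.

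The plot of KLF4 shares places members beside promoter-marked peaks, and the gap to unmarked distal peaks was present at every strength of PLAGL1 peak. At PLAGL1 scores of 20 to 30, 31 to 49 and 50 or more, members had KLF4 shares of 80.5% (70.3 to 87.8), 85.9% (77.3 to 91.6) and 89.0% (82.6 to 93.2). Unmarked distal peaks had 25.1% (21.5 to 29.1), 39.3% (34.3 to 44.5) and 46.4% (41.2 to 51.6) in the same bands. In bands of width (97 to 152, 153 to 244 and 245 bp or more) members had 78.1%, 82.8% and 91.2%, against 25.9%, 34.7% and 49.0%. By distance, the share of members with KLF4 was 91.4% (83.9 to 95.6) within 10 kb, 84.9% (78.7 to 89.6) from 10 to 50 kb, 87.1% (71.1 to 94.9) from 50 to 100 kb and 9 of 15 farther away (35.7 to 80.2%). The 43 members without KLF4 had a median PLAGL1 score of 40 and a median H3K4me3 score of 60, and the 262 with it had 47 and 93. Only 1 of those 43 scored 100 or more for PLAGL1.

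Seen from the mark, distal H3K4me3 peaks with a member held KLF4 more often than those without PLAGL1. Of 3224 distal H3K4me3 peaks, 286 (8.87%, 7.94 to 9.90) held a member. KLF4 was on 251 of these (87.8%, 83.5 to 91.1) and on 1166 of 2925 distal H3K4me3 peaks with no PLAGL1 peak (39.9%, 38.1 to 41.6). The marks themselves were alike, with median scores of 86 and 82, widths of 542 and 500 bp and CpG shares of 13.6% and 13.2%. Within H3K4me3 score bands of 20 to 59, 60 to 126 and 127 to 1725, the KLF4 shares were 78.3%, 93% and 91.5% with a member and 33.1%, 38.6% and 48.3% without. All these lists come from transposase-based profiles of the same kind of cell, and the part of open chromatin in their overlap was not tested.

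Whether KLF4 at these peaks differed between control and Plagl1-deficient cells was read from the authors' deposited table, which gives per site a log2 fold change, its p-value and an adjusted p. Since the direction of its ratio is not stated, values keep the sign given there and are not read as gain or loss. In the authors' deposited table, 1 of the 255 KLF4 sites on members passed an adjusted p under 0.05 in edgeR, against 10 of all 21130 sites (0.0473%). That site, chrX:168776400-168777953 near G530011O06Rik, had a log2 fold change of -0.46 in the authors' deposited table, with an approximate 95% interval of -0.62 to -0.29 and an adjusted p of 0.0029 from edgeR. Without chrX and chrY, 0 of 252 sites passed in the authors' edgeR table and 18 had an unadjusted p under 0.05.

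Over all member sites, the chrX site included, the signs were mostly negative and the changes small. In the authors' deposited table the median log2 fold change over the 255 sites was -0.03, with 160 negative and 95 positive (62.7% negative). Over all sites of the authors' deposited table the median was 0.00 with 49.7% negative, over promoter-marked PLAGL1 peaks -0.01 with 53.6% and over distal PLAGL1 peaks without H3K4me3 -0.07 with 63.9%. Distal H3K4me3 peaks without PLAGL1 had a median of -0.03 with 56.0% negative in the authors' deposited table. Members were thus close to the unmarked distal class in sign. The median approximate standard error per site was 0.13 for members and 0.19 for all sites. Mean signal was also higher, with a median of 6.06 log2 CPM on members and 5.08 on all sites in the authors' deposited table.

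**Figure D4:**
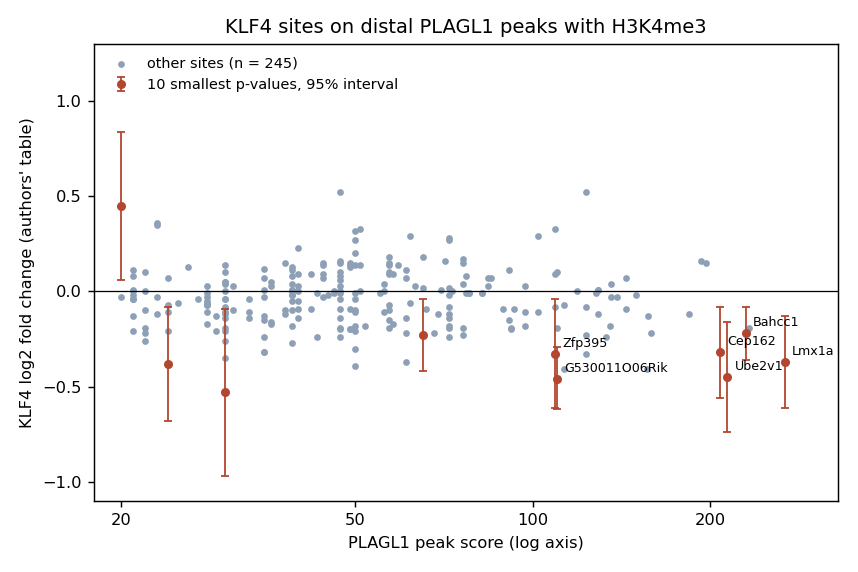
KLF4 log2 fold change between control and Plagl1-deficient cells in the authors' deposited table (y) against PLAGL1 score (x, log axis) for the 255 sites on members. The 10 sites with the smallest p-values are red with approximate 95% intervals, 9 of them below 0. Of these, 4 lie on the 5 members scoring 200 or more, a score chosen after the values were seen.

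In the plot of KLF4 change by PLAGL1 score, 4 of the 10 sites with the smallest p-values lay on members scoring at least 200. None of these 4 passed the threshold, with edgeR adjusted p of 0.52 to 0.67. At an unadjusted p under 0.05 there were 19 member sites (7.45%), 16 negative and 3 positive, whereas the authors' deposited table has 6.46% over all KLF4 sites, 3.05% negative and 3.40% positive. Between the quartiles of the members' mean signal, the shares were 6.30% of 127 member sites and 7.32% of all 6992 sites. There the member sites had 8 negative and 0 positive, and all sites had 274 negative and 238 positive. Of the 39 sites on members scoring 100 or more, 9 were negative and 1 positive at that level, and their median in the authors' deposited table was -0.09. On the 216 sites with lower scores, 7 were negative and 2 positive with a median of -0.03. Promoter-marked peaks scoring 100 or more (75 sites) had 1 of each sign and a median of 0.00, and unmarked distal peaks of that score (23 sites) had 1 negative, 0 positive and a median of -0.12 in the authors' deposited table. At PLAGL1 scores of 20 to 39, 40 to 61 and 62 to 268, member sites had medians of -0.04, 0.00 and -0.06. In these bands 70.2%, 51.9% and 64.3% of sites were negative in the authors' deposited table. Neither the median nor the negative share rose or fell steadily with PLAGL1 score. At an unadjusted p under 0.05, the bands had 4, 2 and 10 negative sites, with 1 positive in each. The score of 100 was chosen after the values were seen, and the differences between these groups were not tested.

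After the chrX site, the smallest p-values in the authors' deposited table belonged to Bahcc1 (log2 fold change -0.22, interval -0.36 to -0.08, edgeR adjusted p = 0.52), Ube2v1 (-0.45, -0.74 to -0.16, adjusted p = 0.54) and Lmx1a (-0.37, -0.61 to -0.13, adjusted p = 0.54). None of these passed the threshold. Cep162 had -0.32, Hspa4, a heat-shock protein gene, -0.38, Spaca6 -0.23, Olfml3 -0.53 and Zfp395 -0.33 in the authors' deposited table. The only positive value among the 10 was Smtn, which encodes a smooth muscle actin-binding protein, at 0.45 in the authors' deposited table.

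By gene group, the members were spread thinly, and 37 of them (12.1%) belonged to any of 18 lists of 492 genes. AP-1 and immediate early genes held 7 members (2.30% of members, against 1.18% of all PLAGL1 peaks), all 7 with KLF4 (85.9% of all members). They were Fos (PLAGL1 scores 128 and 28), its relative Fosb (65), Nr4a1 (71 and 30), Ier2 (30) and Ier3 (57). The stronger Fos member lay 18424 bp upstream (chr12:85501768-85502712, mm39, CpG) with an H3K4me3 score of 171, and the weaker 11979 bp downstream with 579. Fos also had marked PLAGL1 peaks of 129 centred 152 bp upstream of the TSS, in the stretch shown above, and of 76 farther upstream, and an unmarked peak of 133 that lay 2287 bp downstream. Both Nr4a1 members were CpG, 12581 and 20478 bp upstream with H3K4me3 scores of 381 and 121. KLF4 log2 fold changes in the authors' deposited table were -0.01 on both Fos members, 0.16 and -0.04 on those of Nr4a1, 0.02 on Fosb, 0.15 on Ier3 and -0.35 on Ier2 (-0.73 to 0.03). All 7 intervals included 0. The glucocorticoid response list held 4 (1.31% against 0.693%), Per1 with 157, Klf9 with 136 and 47, and Nfkbia, the inhibitor of NF-κB, with 76.

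The KLF and SP list held 5 members (1.64% against 0.693%), all with KLF4 (85.9% of all members). They were both Klf9 peaks, Sp3 (110), Sp1 (21) and Klf4 itself. The Klf9 peaks, both annotated as CpG, lay 6214 and 5400 bp upstream in a shared H3K4me3 peak of score 112. The Klf4 member lay 118907 bp upstream of the gene at chr4:55651257-55651508 (mm39), in a CpG-annotated stretch, with a PLAGL1 score of 47 and an H3K4me3 score of 408. The cytoskeleton, SRF and YAP list held 6 (1.97% against 1.10%), namely the lamin gene Lmna (102), Mrtfa, an actin-sensing SRF cofactor (72), the cytolinker gene Plec (63), Actb (24), Myh9 (23) and Tead3 (21).

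The osteoblast and mineralisation list held 2 members (0.656% against 0.260% of all PLAGL1 peaks), Vdr, the vitamin D receptor (76), and Col1a2, a chain of type I collagen (40). WNT genes held Wnt11 (129) and Wnt7b (61), 0.656% against 0.318%. BMP and TGF-β genes held Tgfbr3 (57 and 50) and Smad6 (28), 0.984% against 1.13%, and craniofacial factors held Foxp1 (50 and 47) and Snai1 (20), 0.984% against 0.895%. Extracellular matrix genes held Col5a1 (57), Col6a1 (39) and the collagen chaperone gene Serpinh1 (24), 0.984% of members against 1.47% of all PLAGL1 peaks. Single members (0.328%) fell to Ccnd3 (40), Fgfr1 (42) and the imprinted growth inhibitor gene Cdkn1c (56). Their lists, cell cycle and p53, growth factor signalling and imprinted genes, held 0.433%, 0.722% and 0.144% of all PLAGL1 peaks. The housekeeping list held 2, Rplp0 (39) and Actb, 0.656% against 0.375%. The lists of periosteal progenitor, chondrocyte, adipocyte and tendon, macrophage and osteoclast, endothelial, and Schwann and muscle genes held 0. Unmarked distal peaks held 0.167% for osteoblast and mineralisation, 0.585% for WNT, 1.34% for BMP and TGF-β and 1.25% for craniofacial factors. Extracellular matrix and housekeeping genes held 2.26% and 0.418% of them. Cell cycle and p53, growth factor signalling and imprinted genes held 0.668%, 1.25% and 0.251%. The AP-1, glucocorticoid, KLF and SP, and cytoskeleton lists held 1.25%, 0.501%, 0.418% and 0.752% there. These shares rest on a handful of peaks and were not tested.

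A single gene, Mir23a, received 4 members, and Cxxc5, which encodes a CpG-binding zinc-finger protein, received 3, with PLAGL1 scores of 44, 35 and 28 and H3K4me3 scores of 97, 97 and 237. Of the 271 genes 240 had 1 member and 29 had 2. All 15 members at microRNA genes overlapped KLF4, which was on 85.9% of all members. The 15 had PLAGL1 scores of 21 to 119 (median 49), and 5 were CpG. Those of the shared-seed pairs printed above were Mir148a (PLAGL1 score 109, H3K4me3 182, 96618 bp downstream of its start) and Mir152 (35 and 106), and Mirlet7a-1 (31 and 958) and Mirlet7i (49 and 190). A nearest gene is an assignment by distance, and several of these peaks lie in introns of other genes.

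**Figure D5:**
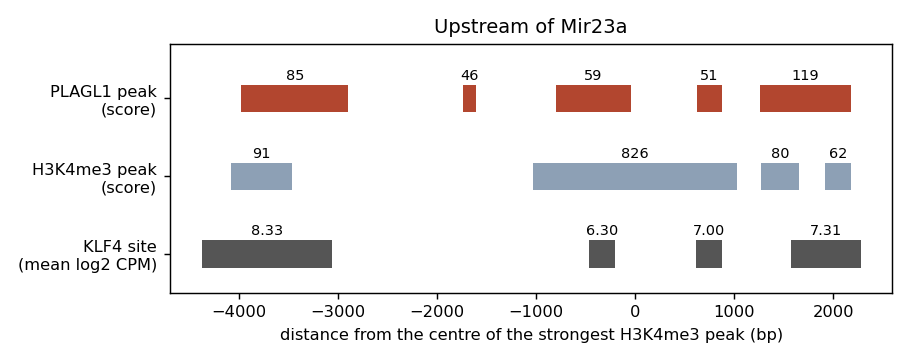
Peaks around the Mir23a members on chr8, drawn to scale as bars by distance (x, bp) from the centre of the strongest H3K4me3 peak, for PLAGL1, H3K4me3 and KLF4, with the authors' peak scores above PLAGL1 and H3K4me3 and the mean log2 CPM of the authors' deposited table above KLF4. The 4 members, with PLAGL1 scores of 85, 59, 51 and 119, each lie over H3K4me3 and KLF4, and the fifth PLAGL1 peak, of score 46, has neither.

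The map of the Mir23a members shows 5 PLAGL1 peaks upstream of this gene, which is transcribed in one precursor with miR-27a and miR-24. The 4 members lay 10035, 7019, 5846 and 4875 bp upstream with scores of 85, 59, 51 and 119. The strongest spanned chr8:84929816-84930729 and the CpG-annotated one chr8:84924572-84925652 (mm39). The middle pair shared an H3K4me3 peak with a score of 826. Of the outer members, the farther lay on a peak of 91 and the nearer on a peak of 80 and another of 62. KLF4 log2 fold changes there were 0.07, 0.14, 0.00 and 0.00 in the authors' deposited table, each with an interval that included 0. Mir23a had no H3K4me3 peak within 3000 bp of its annotated start.

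3 of the high-scoring members on chromosome 2 flank Cebpb, which encodes a C/EBP factor of adipocyte and macrophage differentiation. The Ube2v1 members were 93677 and 92305 bp and the Gm14321 member 75821 bp from the centre of the marked Cebpb promoter (H3K4me3 score 211). Cebpb was picked after the values were seen, and a link from these peaks to any gene was not measured.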

How the data were processed

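Per the submitters' processing notes, the authors used the build mm39 and HOMER 4.11.1, edgeR 4.2.0, DiffBind 3.16.0, MACS3 3.0.2, deepTools 3.5.5, SAMtools 1.21, GATK 4.5.5.0, Bowtie2 2.5.4 and Trim Galore 0.6.10 on the CUT&Tag reads, without saying for which step. For duplicates and library scaling, no source used here gives the treatment. The deposited PLAGL1 (HA against IgG) and H3K4me3 lists give each peak a score, a distance to the TSS, an annotation and a gene, per the file headers. The deposited KLF4 table gives per site a log2 fold change, mean log2 CPM, F score, p-value and adjusted p-value, with no values per library. Its adjusted p equals the Benjamini-Hochberg value over all 21130 sites within 1e-06. Whether the replicates are separate animals or cultures is not in the labels, and the p-values may therefore reflect technical spread alone. Vector names in the KLF4 treatment labels run from Klf4 to Klf9, and the titles were followed.

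Overlaps (at least 1 bp), shares with Wilson 95% intervals, and medians were obtained in scipy 1.17.1, numpy 2.4.6 and pandas 2.3.3 under Python 3.11.15, and drawn with matplotlib 3.10.9. The approximate standard error of a KLF4 site was the size of its log2 fold change over √F, with intervals from degrees of freedom solved from F and p (median 87.6). The calculation was tested on simulated data. The members and lists were chosen with earlier results of these data known. Named are the 15 members with the highest PLAGL1 score, the 10 with the highest H3K4me3 score, the 10 farthest from a TSS, members of the 18 gene lists, genes with 3 or more members, the 10 KLF4 sites with the smallest p, and 5 peaks on each side of the 3000 bp limit; genes outside this rule were named after their values were seen. Some items that the rule names are not reported here. Alternatives changed the distance limit, the overlap rule, the repeat filter, the score minimum and the p threshold.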

Additional observations from a re-analysis of the deposited data

How the results depend on the processing

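The number of members, their KLF4 share, the share in a distal H3K4me3 peak, the count of KLF4 calls and the median KLF4 log2 fold change were recomputed under each alternative. With distal meaning over 1000 bp, the KLF4 share was 80.0% and the share in a distal H3K4me3 peak 69.4%. Over 5000 bp and over 10000 bp the latter was 100%, which follows from the wider limit. The upper 50% of PLAGL1 scores left 175 members. The upper 50% of H3K4me3 scores left 26, of which 92.3% had KLF4 and 92.3% lay in a distal H3K4me3 peak, with 0 sites called by the authors' edgeR table, 2 at an unadjusted p under 0.05 and a median of 0.00. An unadjusted p under 0.05 gave 19 sites. Without chrX and chrY, an alternative chosen after seeing the data, 0 sites were called and 18 had an unadjusted p under 0.05. The other alternatives moved no value beyond its interval, or its count beyond 1.5 times.

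No paired analysis was possible because the authors' table holds no values per library, and leaving out a replicate and a replicate block were not run for the same reason. PLAGL1, IgG and H3K4me3 have 1 library each, so peak presence has no replicate check, and depth is unknown.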
